A study of Mus musculus with 119 samples.

Results

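The genes described here are 9 transcripts by which GABAergic interneurons are recognised: Gad1, Gad2, Lhx6, Sst, Npy, Vip, Pvalb, Calb2 and Reln. They were taken by symbol, as a list that sets no limit on any measured value, from the 55291 genes of the count tables, and each was read in all 119 RNA-seq libraries. All 9 passed a filter on low counts over the whole set of libraries. The libraries come from mice that received injections during adolescence and whose brains were taken some weeks after the last injection, and the study asked how adolescent THC, the main psychoactive compound of cannabis, alters gene expression in regions that process reward. The regions are the prefrontal cortex (PFC), the striatal region abbreviated DMS, the nucleus accumbens (NAc), the amygdala (Amy) and the ventral tegmental area (VTA).

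All mice were C57BL/6J by the labels and C57BL/6NCrl by the study's methods. They were aged 11 weeks by the labels, while the methods place the collection of brains in week 12. Every mouse was injected intraperitoneally once a day from postnatal day 28 to postnatal day 48, 21 injections in all, with THC at 10 mg/kg or with vehicle. Each of the 20 groups (5 regions, both sexes, THC or vehicle) has 6 libraries, except male VTA vehicle with 5. The tissue was a punch, so a library mixes all cell types of the region, and for the DMS the labels name the dorsolateral striatum while the methods name the dorsal medial striatum. In such bulk samples fewer cells of a type and less RNA per cell cannot be told apart.

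GABA, the main inhibitory transmitter of the brain, is made from glutamate by the glutamic acid decarboxylases that Gad1 and Gad2 encode, and these enzymes are found in interneurons and in projecting GABAergic neurons such as the medium spiny neurons of the striatum. Cortical interneurons are sorted by what else they make: cells from the medial ganglionic eminence, which need the transcription factor Lhx6, express Sst or Pvalb, and cells from the caudal ganglionic eminence often express Vip, Calb2 or Reln. Several of these genes are also used outside interneurons, for example Calb2 and Pvalb in neurons of the midbrain and thalamus.

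In GENCODE M21 on GRCm38, Gad1 lies at chr2:70553072-70602014 on the plus strand and Gad2 at chr2:22622205-22693874 on the plus strand. Lhx6 is at chr2:36081953-36105408 on the minus strand. The neuropeptide genes are Sst at chr16:23889573-23890958 on the minus strand, Npy at chr6:49822710-49829507 on the plus strand and Vip at chr10:5639218-5647617 on the plus strand. The genes of the calcium-binding proteins are Pvalb at chr15:78191114-78206400 and Calb2 at chr8:110137502-110168210, both on the minus strand. Reln, at chr5:21884454-22344702 on the minus strand, has the longest joined exons of the list with 23738 bases, while Npy has the shortest with 566. All 9 are protein-coding genes.

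The promoters of 4 genes are printed because these genes form 2 of the pairs whose levels were correlated between libraries in some regions, Sst with Npy in DMS and NAc and Gad1 with Gad2 in PFC, Amy and VTA. Each sequence is RefSeq's, from 250 bases before to 50 bases after the start site on GRCm38.p6, written 5′ to 3′ on the gene's own strand. The windows are chr16:23890795-23891094 (minus strand) for Sst, chr6:49822460-49822759 (plus strand) for Npy, chr2:70561879-70562178 (plus strand) for Gad1 and chr2:22622077-22622376 (plus strand) for Gad2. Capitals mark the motifs searched on both strands, the cAMP response element TGACGTCA and its core TGACG, the TATA box TATAAA and the GC box GGGCGG, and a motif on the opposite strand appears as its reverse complement.
Sst: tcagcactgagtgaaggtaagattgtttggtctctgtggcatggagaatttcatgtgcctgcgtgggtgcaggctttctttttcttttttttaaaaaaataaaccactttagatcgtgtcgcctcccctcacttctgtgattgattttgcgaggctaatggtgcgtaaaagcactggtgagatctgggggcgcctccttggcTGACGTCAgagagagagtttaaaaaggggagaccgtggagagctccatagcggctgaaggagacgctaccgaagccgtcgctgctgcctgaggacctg
Npy: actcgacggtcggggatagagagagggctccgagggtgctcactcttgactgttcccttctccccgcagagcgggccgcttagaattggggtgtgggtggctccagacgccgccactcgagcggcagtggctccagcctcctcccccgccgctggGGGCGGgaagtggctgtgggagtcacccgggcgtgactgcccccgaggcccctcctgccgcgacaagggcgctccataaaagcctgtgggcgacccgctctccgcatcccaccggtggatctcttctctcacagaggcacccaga
Gad1: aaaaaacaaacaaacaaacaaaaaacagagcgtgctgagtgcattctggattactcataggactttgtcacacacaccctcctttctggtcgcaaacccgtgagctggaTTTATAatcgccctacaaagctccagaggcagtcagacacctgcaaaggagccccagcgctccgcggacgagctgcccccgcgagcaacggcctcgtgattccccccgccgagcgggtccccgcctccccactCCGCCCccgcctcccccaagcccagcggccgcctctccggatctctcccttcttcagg
Gad2: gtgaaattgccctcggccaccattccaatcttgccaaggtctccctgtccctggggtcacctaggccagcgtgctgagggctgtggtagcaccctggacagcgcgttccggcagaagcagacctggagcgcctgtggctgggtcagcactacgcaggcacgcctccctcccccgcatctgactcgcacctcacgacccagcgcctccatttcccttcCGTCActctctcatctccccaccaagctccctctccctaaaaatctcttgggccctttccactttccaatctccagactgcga

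The Sst promoter held TGACGTCA, whose first base is at -48 from the start site, and TGACG lies within it on both strands. TGACGTCA stood in 1.79% of the 32851 RefSeq promoters of the same length. The Npy promoter held GGGCGG at -95, a motif found in 35.7% of promoters. The Gad1 promoter held TATAAA at -141, found in 13.6% of promoters, and GGGCGG at -8. The Gad2 promoter held TGACG at -33, found in 20.8% of promoters. These matches describe the letters of the windows only, and neither member of a pair shared its set of motifs with the other. The RefSeq table gave promoters for 8 of the 9 genes, and Calb2 is named only.

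Levels are in CPM, a count scaled to the total of its library, here with TMM factors over all 119 libraries. The total expected count of a library ranged from 3090998 to 77042133 with a median of 22092612, and the shallowest was a male VTA vehicle library (FTL_371). By the study's methods the brains of 24 mice were punched for all 5 regions, so libraries of different regions share mice. The labels do not say which libraries come from the same mouse, and the comparisons between regions treat them as independent, so p-values measure the spread between libraries. PFC and DMS were deposited in one table and NAc, Amy and VTA in another, so for regions held in different tables the region and the table cannot be told apart. In the Amy 2 libraries had sex genes that went against their labels. The library labelled female THC (FTL_344) had Xist at 0.293 CPM and a sum of Y-linked genes of 139 CPM, and the library labelled male THC (FTL_356) had Xist at 488 CPM and a Y-linked sum of 0.371 CPM. Both are kept under their labels, and the treatment and sex comparisons in the Amy and the correlations named there are also given without them. An exchange of these 2 libraries with each other would put each in the THC group of the other sex, and it was not tested. Group medians of region markers followed the labels in the female vehicle groups named here. The markers of medium spiny neurons summed to a median of 11044 CPM in female vehicle DMS and 278.6 CPM in female vehicle PFC. The dopaminergic markers summed to a median of 3979 CPM in female vehicle VTA and 46.7 CPM in female vehicle DMS. Single libraries of Amy and NAc overlapped in the medium spiny neuron markers. The highest male THC Amy library had a sum of 3212 CPM (group median 811), where male vehicle NAc ran from 3113 to 4706 CPM.

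The levels of the 9 genes by region were compared in the 59 vehicle libraries. A gene was called when its adjusted p in edgeR's quasi-likelihood test was under 0.05 and its log2 fold change was at least 0.4 in size. Large shares of all genes differ between brain regions by this rule, and the counts of the 9 genes have to be read against those shares. The test called 6 of the 9 between PFC and DMS (49.2% of all genes tested), 8 between PFC and NAc (45.2%), 8 between PFC and Amy (37.4%) and 8 between PFC and VTA (55%). It called 7 between DMS and NAc (30.7%), 8 between DMS and Amy (43%) and 9 between DMS and VTA (57.6%). It called 6 between NAc and Amy (24.8%), 8 between NAc and VTA (52.1%) and 8 between Amy and VTA (43.4%). The widest differences were those of Calb2 and Lhx6 against the VTA and of Vip between PFC and DMS.

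**Figure D1:**
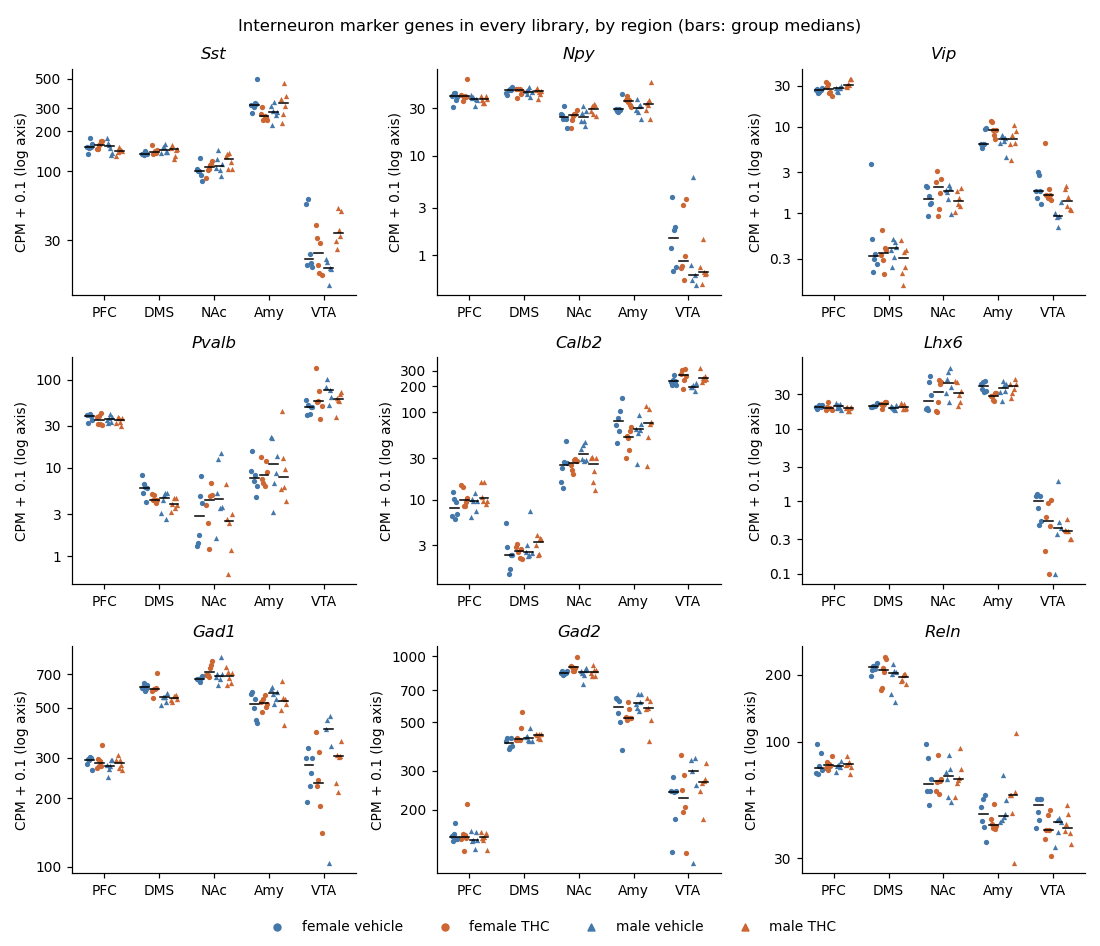
Level of each of the 9 genes in every library by region, as CPM plus 0.1 on a log axis, with circles for female and triangles for male libraries, blue for vehicle and orange for THC, and a bar at each group median. Lhx6 and Npy sit lowest in the VTA, Calb2 sits highest there, and the PFC libraries of Vip lie above those of every other region.

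Gad1 and Gad2 were read in every region, with at least 103.8 CPM of either in each vehicle library. In vehicle libraries the lowest, the median and the highest level of Gad1 was 247, 287.8 and 303.3 CPM in PFC, 512, 587 and 639 CPM in DMS, 627, 673 and 836 CPM in NAc, 427, 559 and 616 CPM in Amy and 104, 300.4 and 457 CPM in VTA. The order of medians was therefore NAc, DMS, Amy, VTA and PFC. Gad1 did not pass the rule between PFC and VTA (log2 fold change -0.12, 95% interval -0.33 to 0.10), between DMS and NAc (-0.22, -0.43 to -0.02), between DMS and Amy (0.15, -0.06 to 0.36) or between NAc and Amy (0.37, 0.16 to 0.58). Gad2 separated the regions further, since all 10 pairs of regions passed in vehicle libraries, though DMS against Amy was lost in the THC libraries. In PFC, Gad2 had a lowest, a median and a highest level of 132, 147 and 174 CPM, against 378.3, 413 and 470 CPM in DMS, 747, 843 and 881 CPM in NAc, 375.5, 614 and 676 CPM in Amy and 114, 244 and 344.8 CPM in VTA. The log2 fold change of PFC against NAc was -2.49 for Gad2 (SE 0.0992) and -1.28 for Gad1 (SE 0.105). The other genes of GABA synthesis, GABA transport and the forebrain GABAergic transcription factors lay the same way in that pair, with 9 of 9 called lower in PFC than in NAc at a median log2 fold change of -1.57, against 25.5% of all genes called lower. Between NAc and VTA, where 52.1% of all genes were called in either direction, the same list was split. Of its 9 genes 6 were called higher in NAc, among them Slc32a1 (0.86), and 1 was called lower, the GABA transporter gene Slc6a11 (-1.75). The sum of the list ran from 1677 to 2076 CPM in female vehicle NAc and from 2010 to 2460 CPM in female vehicle VTA.

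Lhx6 marked the forebrain. In vehicle libraries its lowest, median and highest level was 18.1, 20.2 and 22.3 CPM in PFC, 18.2, 20.3 and 22.3 CPM in DMS, 18.2, 34.2 and 69.3 CPM in NAc and 24.3, 37.7 and 45.4 CPM in Amy, but 0, 0.436 and 1.79 CPM in VTA. PFC and DMS did not differ beyond their spread (log2 fold change -0.01, interval -0.33 to 0.31), nor did NAc and Amy (0.05, -0.26 to 0.35), although the NAc libraries spread more widely than those of the other forebrain regions. NAc exceeded VTA by 6.18 on the log2 scale (SE 0.257). The VTA library with the highest Lhx6, at 1.79 CPM, was the shallowest library, with 6 counts of the gene.

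Sst, which encodes somatostatin, was highest in the Amy. From the lowest over the median to the highest vehicle library, Sst was at 223, 310.6 and 499 CPM in Amy, 132, 153 and 180 CPM in PFC, 132, 138 and 161 CPM in DMS, 83.6, 102 and 146 CPM in NAc and 13.7, 20.1 and 62.1 CPM in VTA. PFC and DMS did not differ beyond their spread (log2 fold change 0.10, interval -0.17 to 0.38), and the small step from DMS to NAc (0.40, SE 0.138) fell below the rule in DESeq2 and in the THC libraries. The log2 fold change of NAc against Amy was -1.497 (SE 0.140) and that of Amy against VTA 3.52 (SE 0.160).

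Npy, the gene of neuropeptide Y that is found with Sst in many striatal and cortical interneurons, had another order. The lowest, median and highest vehicle libraries had Npy at 38.6, 45.1 and 49.1 CPM in DMS, 30.8, 38.0 and 43.0 CPM in PFC, 23.1, 29.1 and 42.1 CPM in Amy, 18.9, 24.5 and 31.9 CPM in NAc and 0.403, 0.693 and 5.97 CPM in VTA. Neighbours in this order did not pass the rule, with log2 fold changes of -0.26 for PFC against DMS (adjusted p = 0.0546), 0.33 for PFC against Amy (adjusted p = 0.0189, below the fold limit) and -0.26 for NAc against Amy (adjusted p = 0.0851). The step down to VTA was a log2 fold change of 4.59 (SE 0.196) from NAc and 5.44 (SE 0.194) from DMS.

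Vip, which encodes vasoactive intestinal peptide, was a gene of the PFC. Vehicle libraries had a lowest, median and highest Vip of 24.7, 26.9 and 29.4 CPM in PFC, 4.36, 6.62 and 9.52 CPM in Amy, 0.826, 1.58 and 2.02 CPM in NAc, 0.597, 1.27 and 2.93 CPM in VTA and 0.110, 0.258 and 3.59 CPM in DMS. No vehicle library of another region reached those of the PFC. PFC exceeded DMS by 5.56 on the log2 scale (SE 0.267) and Amy by 1.98 (SE 0.198), while NAc and VTA did not differ beyond their spread (0.09, interval -0.47 to 0.66). The DMS library at 3.59 CPM (FTL_285) also held the highest sum of cortical projection neuron markers in female vehicle DMS, where those sums ran from 6.06 to 276.7 CPM, and the part of these cells in its Vip was not tested.

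Of the calcium-binding proteins, Pvalb (parvalbumin, of fast-spiking interneurons) was highest in VTA and PFC. Its lowest, median and highest level was 39.8, 51.7 and 100.1 CPM in VTA, 31.9, 37.2 and 40.2 CPM in PFC, 3.06, 8.40 and 22.2 CPM in Amy, 2.55, 5.07 and 8.20 CPM in DMS and 1.21, 3.73 and 14.7 CPM in NAc. DMS and NAc did not differ beyond their spread (log2 fold change 0.10, interval -0.51 to 0.71), and PFC against VTA was -0.71 (SE 0.239). Calb2 (calretinin) rose stepwise from DMS to VTA and differed in all 10 pairs. From the lowest over the median to the highest library it was at 1.32, 2.30 and 7.40 CPM in DMS, 5.94, 9.43 and 12.2 CPM in PFC, 13.4, 28.0 and 46.4 CPM in NAc, 25.3, 68.25 and 148 CPM in Amy and 177, 207 and 271.8 CPM in VTA. DMS against VTA was the widest difference of any of the 9 genes, at a log2 fold change of -6.19 (SE 0.247).

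Reln, which encodes the secreted glycoprotein reelin, was highest in DMS. Its lowest, median and highest level was 151, 208 and 225 CPM in DMS, 71.7, 77.5 and 97.8 CPM in PFC, 51.6, 68.0 and 97.4 CPM in NAc, 35.6, 46.5 and 70.7 CPM in Amy and 33.7, 44.5 and 55.5 CPM in VTA. DMS stood clear of all other regions, with log2 fold changes of -1.38 for PFC against DMS (SE 0.0877) and 2.16 for DMS against VTA (SE 0.0939). PFC and NAc (0.17, interval 0.00 to 0.34) and Amy and VTA (0.07, interval -0.12 to 0.25) did not pass.

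To set genes against each other, the vehicle mean was divided by the length of the joined exons. Per kilobase Sst led in PFC with 214 ± 21.5 CPM (SD, n = 12), ahead of Npy with 66.8, Gad1 with 37.0, Pvalb with 35.04 and Gad2 with 25.5 CPM per kilobase, while Reln came last with 3.33. Sst also led in Amy with 433 CPM per kilobase, followed by Gad2 with 100.1 and Gad1 with 70.998. In NAc the levels per kilobase of Sst (149) and Gad2 (143) lay close together. In VTA the order changed, with Calb2 at 123 CPM per kilobase ahead of Pvalb at 57.7, Gad2 at 41.3, Gad1 at 39.9 and Sst at 36.9.

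The 9 genes were then compared between THC and vehicle in each region and sex, which gave 87 tests in 10 comparisons because Vip in DMS of both sexes and Lhx6 in male VTA were too low to test. A single gene was called, Lhx6 in female Amy, where 1.57% of all genes were called. In female DMS no gene of the list was called and 0.0127% of all genes were, and in the other 8 comparisons no gene of the list was called and 0% of all genes. At an unadjusted p under 0.05, 14 of the 87 tests passed. Of all genes the share at that level was 5.84% in female and 4.07% in male PFC, 8.9% and 1.93% in DMS, 4.61% and 16.7% in NAc, 21.9% and 1.84% in Amy, and 9.02% and 5.92% in VTA. DESeq2 called Lhx6 in female Amy, where it called 3.39% of the genes to which it gave an adjusted p, and Sst in male VTA, where Sst was its only call (0.00327%). It called none of the 9 elsewhere, where it called 0.19% of genes in female DMS, 0.102% in male NAc, 0.0449% in female VTA and 0% in the other 5 comparisons. DESeq2 gave no adjusted p to Calb2 in female DMS or to Npy, Vip and Lhx6 in female VTA. It also gave none to Npy, Vip, Pvalb, Calb2 and Lhx6 in male NAc, so none of these could be called there by that tool.

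Counted by gene, the 14 tests were spread as follows, and whether this spread was uneven was not tested. Vip and Calb2 had 3 each, Sst and Gad2 had 2 each, Pvalb, Lhx6, Gad1 and Reln had 1 each, and Npy had none in 10. Vip was higher in THC than in vehicle in 7 of its 8 comparisons, with a median log2 fold change of 0.24, and this direction was not itself tested. In female VTA it was 0.28, and -0.34 without the THC library FTL_363. The log2 fold changes of Gad1 lay between -0.29 and 0.12 over the 10 comparisons and those of Gad2 between -0.15 and 0.17.

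**Figure D2:**
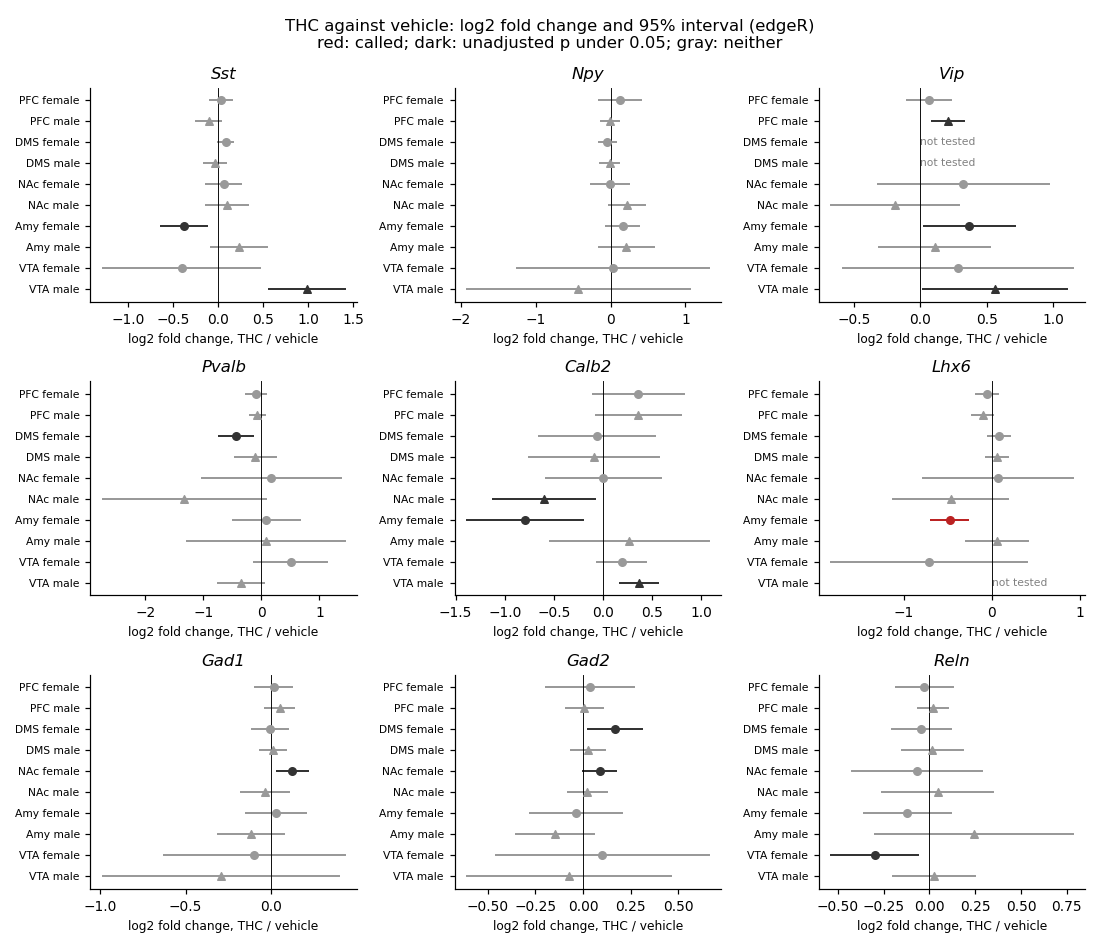
Log2 fold change of THC against vehicle (horizontal axis, its range set per gene) for each of the 9 genes in each region and sex, with 95% intervals from edgeR, in red where called, dark at an unadjusted p under 0.05 and gray otherwise. Lhx6 in female Amy (-0.48) is the only red point, and Sst in male VTA (0.99) lies farthest above 0.

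In female Amy the 6 vehicle libraries had Lhx6 at 41.3, 35.3, 43.5, 32.1, 45.4 and 32.6 CPM, and the 6 THC libraries at 28.3, 28.0, 24.8, 24.05, 30.6 and 30.8 CPM. All THC libraries lay below all vehicle libraries, as was so in either direction for 4.14% of all genes tested there. The log2 fold change was -0.48 (SE 0.0982, interval -0.69 to -0.27) with an adjusted p of 0.0258 in edgeR, and DESeq2 gave an adjusted p of 6.1e-04. With all 4 Amy groups in a single fit the same log2 fold change had an adjusted p of 0.0812. Without the library labelled female THC that had male sex genes (FTL_344) it was -0.51 with an adjusted p of 0.0415. Leaving out either of the vehicle libraries FTL_333 and FTL_335, or any of the THC libraries FTL_339, FTL_340 and FTL_342, raised the adjusted p of Lhx6 to between 0.0514 and 0.0697, with log2 fold changes from -0.49 to -0.44.

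With Lhx6, 4 of the 9 genes in female Amy had an unadjusted p under 0.05, where 21.9% of all genes did, and the other 3 did not pass the adjusted threshold. Sst ran from 275.97 to 499 CPM in vehicle with a median of 317.97 and from 245 to 303.6 CPM in THC with a median of 259, so the groups overlapped. Its log2 fold change was -0.38 (SE 0.121, adjusted p = 0.1003), and -0.24 without the vehicle library at 499 CPM (FTL_338), still below the fold limit with an adjusted p of 0.0328. Calb2 ran from 44.9 to 148 CPM in vehicle with a median of 79.6 and from 29.8 to 67.6 CPM in THC with a median of 52.3, a log2 fold change of -0.79 (SE 0.273, adjusted p = 0.126). Vip went the other way, from a median of 6.26 CPM (5.68 to 9.52) to a median of 9.09 CPM (7.09 to 11.6), a log2 fold change of 0.37 (SE 0.159, adjusted p = 0.198). The 2 decarboxylase genes stayed close to 0, with Gad1 at 0.03 (interval -0.15 to 0.20) and Gad2 at -0.04 (interval -0.28 to 0.20). Without FTL_344 the log2 fold changes were -0.36 for Sst, -0.90 for Calb2, 0.38 for Vip, 0.03 for Gad1 and -0.02 for Gad2, and none of these 5 genes was called. In that fit 0.936% of all genes were called and 18% had an unadjusted p under 0.05.

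Markers of other cells differed between the same libraries. All 8 projection neuron markers of the cortex and basolateral amygdala were higher in female THC Amy at an unadjusted p under 0.05 and 4 were called, with a median log2 fold change of 0.69 against -0.01 over all genes, and their sum ran from 528 to 781 CPM in vehicle and from 844 to 1195 CPM in THC. Slc17a7, the vesicular glutamate transporter of cortical excitatory neurons, had a log2 fold change of 0.76, and Tbr1, a transcription factor of such neurons, of 0.94. Of 10 medium spiny neuron markers 8 were higher at an unadjusted p under 0.05 (none called, median 0.66), with sums from 557 to 1240 CPM in vehicle and from 976 to 1604 CPM in THC. Of 7 tested hypothalamus and medial amygdala markers 4 were lower (none called, median -0.46), with sums from 109 to 133 CPM in vehicle and from 82.0 to 118 CPM in THC. Choroid plexus markers summed to between 17.0 and 1146 CPM in vehicle (median 237) and between 17.5 and 3566 CPM in THC (median 22.4). No marker of these 4 lists was at 0 in all libraries of either group. Their part in the Lhx6 result was not tested. Among the genes related to the list, Dlx1 (log2 fold change -0.75) and Dlx2 (-0.49), transcription factors of forebrain GABAergic neurons, were called lower, while Satb1 (0.55) of the medial eminence list and Cnr1 (0.45), the cannabinoid receptor gene, of the caudal eminence list were called higher. Without FTL_344 all 8 projection neuron markers were again higher at an unadjusted p under 0.05 and 4 were called (median 0.74, sums from 844 to 1195 CPM in THC). Of the medium spiny neuron markers 8 were higher (none called, median 0.75, sums from 1153 to 1604 CPM), and of the hypothalamus and medial amygdala markers 5 were lower (none called, median -0.77, sums from 82.0 to 106.2 CPM). Without it Slc17a7 (0.76), Tbr1 (0.97), Dlx1 (-0.81), Dlx2 (-0.54) and Satb1 (0.58) were called, while Cnr1 was not (0.45, adjusted p = 0.0790). Most genes of the lists that hold Dlx1, Dlx2, Satb1 and Cnr1 were not called in that fit. Of the GABA synthesis, transport and transcription factor list 2 of 9 were called, at a list median of -0.08. Of the medial eminence list 1 of 12 was called (median -0.09), and of the caudal eminence list 0 of 13 (median -0.08).

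In male Amy, Lhx6 ran from 24.3 to 45.3 CPM in vehicle and from 26.3 to 48.4 CPM in THC (log2 fold change 0.06, interval -0.30 to 0.41), and the log2 fold change was 0.03 without the library that had female sex genes (FTL_356). The medium spiny neuron markers summed to between 923 and 2076 CPM in male vehicle Amy and between 642 and 3212 CPM in male THC Amy. Their part in the male Amy values was not tested. The difference between the sexes in the effect of THC was tested as an interaction, male effect minus female effect, and none of the 9 genes was called by edgeR or DESeq2, where edgeR called 0.0059% of all genes and DESeq2 0.132%. In edgeR 3 of the 9 had an unadjusted p under 0.05 where 15.8% of all genes did. The interaction was 0.61 for Sst (SE 0.201, adjusted p = 0.256), 0.54 for Lhx6 (SE 0.200, adjusted p = 0.256) and 1.06 for Calb2 (SE 0.483, adjusted p = 0.3004). Without the 2 libraries whose sex genes went against their labels these values were 0.56, 0.54 and 1.16, and 0% of all genes were called.

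By the study's methods a male VTA sample was found to be an outlier and left out of the study's analysis. The methods do not name it or say whether it is among the deposited libraries, and all deposited male VTA libraries are kept here. In male VTA Sst stood out by rank. The 5 vehicle libraries had Sst at 21.5, 20.7, 13.7, 18.4 and 18.2 CPM, and the 6 THC libraries at 29.4, 25.8, 52.4, 36.0, 32.5 and 50.1 CPM. All THC libraries lay above all vehicle libraries, as was so in either direction for 0.515% of all genes tested there. The log2 fold change was 0.99 (SE 0.191, interval 0.57 to 1.41), the smallest unadjusted p of all 17103 genes tested (2.9e-04), and the adjusted p in edgeR was 0.819. DESeq2 gave 1.00 with an adjusted p of 1.7e-04 for Sst and called no other of the 9. Without the vehicle library FTL_372 the adjusted p of Sst in DESeq2 was 0.245, and without FTL_373 DESeq2 gave Sst no adjusted p.

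Calb2 in male VTA also had groups that did not overlap, from 177 to 217 CPM in vehicle and from 223 to 324.9 CPM in THC. Its log2 fold change was 0.37 (SE 0.089, adjusted p = 0.819 in edgeR and 0.167 in DESeq2). Vip had medians of 0.823 CPM in vehicle and 1.28 CPM in THC, a log2 fold change of 0.56 (SE 0.253, adjusted p = 0.819) at levels near the lowest of the set. Of the list 3 of 8 tested genes had an unadjusted p under 0.05, where 5.92% of all genes did. Gad1 ran from 104 to 457 CPM in vehicle, the lowest being the shallowest library (FTL_371), and from 213 to 354.7 CPM in THC (log2 fold change -0.29, interval -0.98 to 0.40). Without that library the log2 fold change of Gad1 was -0.51 in edgeR (adjusted p = 0.527) and -0.52 in DESeq2 (adjusted p = 0.0287), without the vehicle library FTL_372 that of Gad1 was -0.19 in edgeR, and without FTL_371 that of Sst was 0.95 in edgeR (adjusted p = 0.496). In the same libraries the cortical projection neuron markers summed to between 6.17 and 59.7 CPM in vehicle and between 7.70 and 154 CPM in THC, and the 6 midbrain GABAergic markers to between 32.2 and 89.2 CPM in vehicle and between 38.3 and 62.0 CPM in THC, and their part in the Sst values was not tested.

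In female VTA Sst went from a median of 21.7 CPM in vehicle (19.0 to 62.1) to 23.99 CPM in THC (16.3 to 39.4), a log2 fold change of -0.41 with an interval from -1.29 to 0.47. It was -0.13 without the vehicle library at 62.1 CPM (FTL_359) and -0.20 without the vehicle library FTL_357. The interaction for Sst was 1.39 (SE 0.463, unadjusted p = 0.00703, adjusted p = 0.780) and that for Pvalb -0.86 (SE 0.350, adjusted p = 0.780). Without FTL_359 the interaction for Sst was 1.11, and without FTL_363 that for Pvalb was -0.54. Neither was called, edgeR called 0% of all genes in this interaction, 6.16% had an unadjusted p under 0.05, and DESeq2 called none of the 9. Reln, lower in female THC VTA, ran from 40.7 to 55.5 CPM in vehicle and from 30.6 to 49.1 CPM in THC, and its log2 fold change was -0.30 (SE 0.112, adjusted p = 0.512). In the same libraries 5 of 6 microglia markers and 3 of 6 astrocyte markers were lower at an unadjusted p under 0.05, as were 9.02% of all genes in either direction, and none was called. Microglia markers summed to between 201.6 and 254 CPM in vehicle and between 153 and 227.5 CPM in THC, and astrocyte markers to between 1697 and 2526 CPM and between 1008 and 2430 CPM. Thalamus and subthalamus markers summed to between 240.2 and 374.5 CPM in vehicle and between 322.8 and 515 CPM in THC. The 14 receptors of the peptides and of reelin summed to between 563 and 590.3 CPM in vehicle and between 515 and 559 CPM in THC. Of them 4 were lower at an unadjusted p under 0.05 and none was called. No gene of these 4 lists was at 0 in all libraries of either group, and the part of these cells in the Reln values was not tested.

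**Figure D3:**
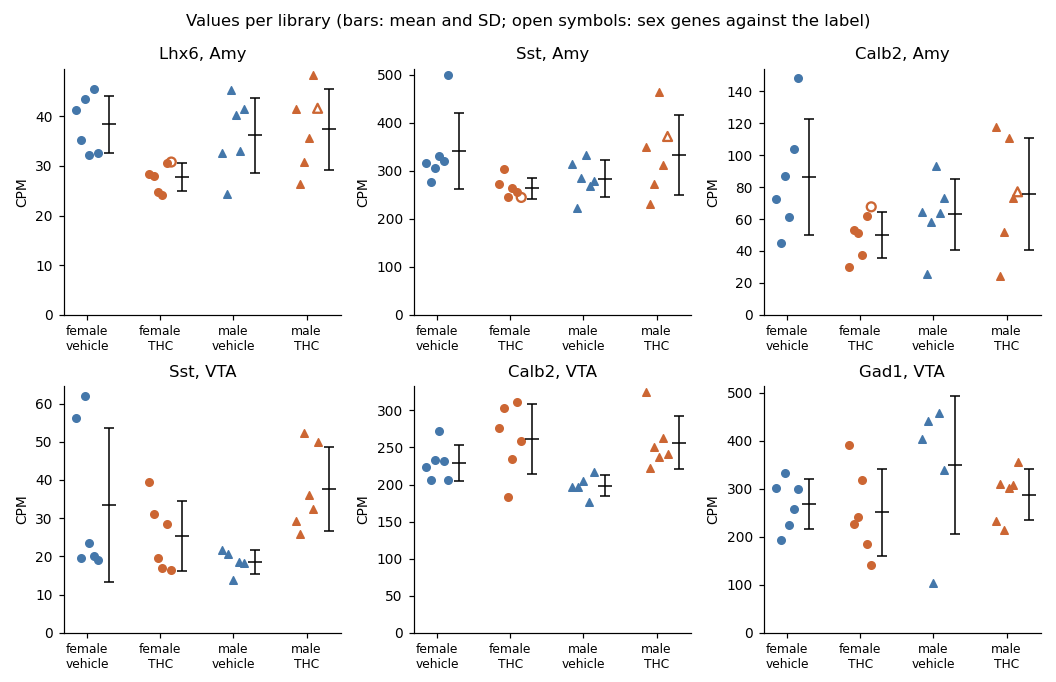
CPM in each library by sex and treatment for Lhx6, Sst and Calb2 in Amy and for Sst, Calb2 and Gad1 in VTA, with the mean and SD of each group as bars and open symbols for the 2 libraries whose sex genes went against their labels. The female Amy THC libraries lie between 24.05 and 30.8 CPM for Lhx6, below the vehicle libraries, and the male VTA THC libraries lie between 25.8 and 52.4 CPM for Sst, above the vehicle libraries.

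In male NAc none of the 9 was called by edgeR (0% of all genes) or among the 4 genes to which DESeq2 gave an adjusted p, and Calb2 alone had an unadjusted p under 0.05, as did 16.7% of all genes. Calb2 was 38.0, 29.4, 42.7, 27.5, 46.0 and 28.5 CPM in the vehicle libraries and 30.2, 30.6, 15.8, 20.98, 12.97 and 29.7 CPM in the THC libraries, and the groups overlapped. Its log2 fold change was -0.60 (SE 0.236, adjusted p = 0.252). Pvalb had a larger log2 fold change in the same libraries, from a median of 4.34 CPM (1.49 to 14.7) to a median of 2.38 CPM (0.531 to 6.51), but with a wide interval (log2 fold change -1.33, -2.74 to 0.07). Lhx6 had a median of 43.2 CPM in vehicle and 30.9 CPM in THC (log2 fold change -0.47, interval -1.12 to 0.18, and -0.30 without the vehicle library FTL_325). All 10 medium spiny neuron markers were higher in the THC libraries at an unadjusted p under 0.05, none called, with a median log2 fold change of 0.37 and sums from 3113 to 4706 CPM in vehicle and from 4154 to 6479 CPM in THC. Of 5 tested hypothalamus and medial amygdala markers 3 were lower, with sums from 36.7 to 64.2 CPM in vehicle and from 30.2 to 41.8 CPM in THC. The 6 thalamus and subthalamus markers summed to between 51.31 and 78.9 CPM in vehicle and between 41.6 and 51.27 CPM in THC. Only 1 of the 4 tested was lower at an unadjusted p under 0.05. The 8 cortical projection neuron markers summed to between 6.80 and 110.2 CPM in vehicle and between 4.94 and 15.2 CPM in THC, and 2 of the 3 tested were lower at that level. No marker of these 4 lists was at 0 in all libraries of either group, and the part of the lists in the values of Calb2, Pvalb and Lhx6 was not tested.

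In female DMS Pvalb was 8.20, 5.13, 6.53, 5.91, 4.03 and 5.86 CPM in the vehicle libraries and 5.01, 4.22, 4.80, 4.24, 3.86 and 4.18 CPM in the THC libraries. The groups overlapped through 1 vehicle library, and the log2 fold change was -0.44 (SE 0.140, adjusted p = 0.330). Without the vehicle library at 8.20 CPM (FTL_285), the one with the cortical markers, it was -0.31. Gad2 was higher in female THC DMS by 0.17 (SE 0.0668, adjusted p = 0.474), and by 0.10 without the THC library FTL_296, and in female NAc Gad1 was higher by 0.12 (SE 0.0436) and Gad2 by 0.09 (SE 0.0411), both with an adjusted p of 0.991. In male PFC Vip went from a median of 28.5 CPM (25.2 to 29.4) to a median of 30.7 CPM (29.1 to 36.0), a log2 fold change of 0.21 (SE 0.058, unadjusted p = 0.00178, adjusted p = 1.00). The widths of the intervals differed between genes and regions, as that of Gad1 in female PFC ran from -0.10 to 0.12, that of Calb2 in the same libraries from -0.10 to 0.83, and that of Npy in male VTA, where the group medians were 0.540 and 0.572 CPM, ran from -1.92 to 1.06 around -0.43 and its estimate was 0.42 without FTL_371.

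With both sexes of a region in a single fit with sex as a covariate, edgeR and DESeq2 called none of the 9 for THC in any region. EdgeR called 0% of all genes, and so did DESeq2 except for 0.00617% in Amy. DESeq2 gave no adjusted p to 7 of the 9 in NAc (all but Gad1 and Gad2) or to Npy, Vip and Lhx6 in VTA. In edgeR the unadjusted p was under 0.05 for Vip (log2 fold change 0.14) and Calb2 (0.36) in PFC, for Pvalb (-0.27) and Gad2 (0.10) in DMS and for Calb2 in VTA (0.28, adjusted p = 0.354), where 4.78%, 4.89% and 10.2% of all genes passed that level, and for none of the 9 in NAc (10.3% of all genes) or Amy (7.05%). Without the 2 Amy libraries whose sex genes went against their labels, Lhx6 had a log2 fold change of -0.25 (unadjusted p = 0.0497, adjusted p = 0.990) in that fit. The interaction of sex and THC was not called for any of the 9 in PFC, DMS or NAc by either tool, where edgeR called 0% of all genes and DESeq2 0% in PFC and NAc and 0.00967% in DMS. Between males and females none of the 9 was called in any region by either tool, while edgeR called 0.24% of all genes in PFC, 2.64% in DMS, 0.243% in NAc, 0.012% in Amy and 0.109% in VTA. DESeq2 called 0.369%, 3.26%, 0.415%, 0.0778% and 0.174% in the same order. The 2 Amy libraries whose sex genes went against their labels are in this comparison, and without them edgeR called 0.0838% of all genes in Amy and again none of the 9. In DMS the log2 fold change of males against females was -0.14 for Gad1 (SE 0.0303, adjusted p = 0.00515) and -0.35 for Pvalb (SE 0.115, adjusted p = 0.0448), both below the fold limit.

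Within the groups, some pairs of the genes varied together from library to library and some ran opposite, while the median r over all pairs was -0.02. Pearson r was computed for the 36 pairs of the 9 genes in each region, 180 in all, on log2 CPM centred on the mean of each sex and treatment group, with 24 libraries in a region and 23 in VTA. By a permutation test within groups with adjustment over the 180, 29 pairs passed an adjusted p of 0.05, of which 17 were positive and 12 negative. Amy had 10, VTA 7, DMS 5, NAc 4 and PFC 3. Other genes of a punch are correlated as well, so the pairs were set beside all pairs of genes past the filter at the smallest r, in size, of a pair that passed in that region. In Amy, 27.8% of the 36 pairs and 6.83% of all pairs reached 0.605, and in VTA 22.2% and 3.65% reached 0.618. In DMS, 13.9% and 7.7% reached 0.494, in NAc 11.1% and 0.335% reached 0.754, and in PFC 8.33% and 1.68% reached 0.567. These shares are descriptions, since pairs share genes and libraries. The limit in each region also came from the 36 pairs themselves, and the genes of all pairs were not matched to the 9 in level. The punches of a region share its anatomy, and how a punch was placed was not measured.

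**Figure D4:**
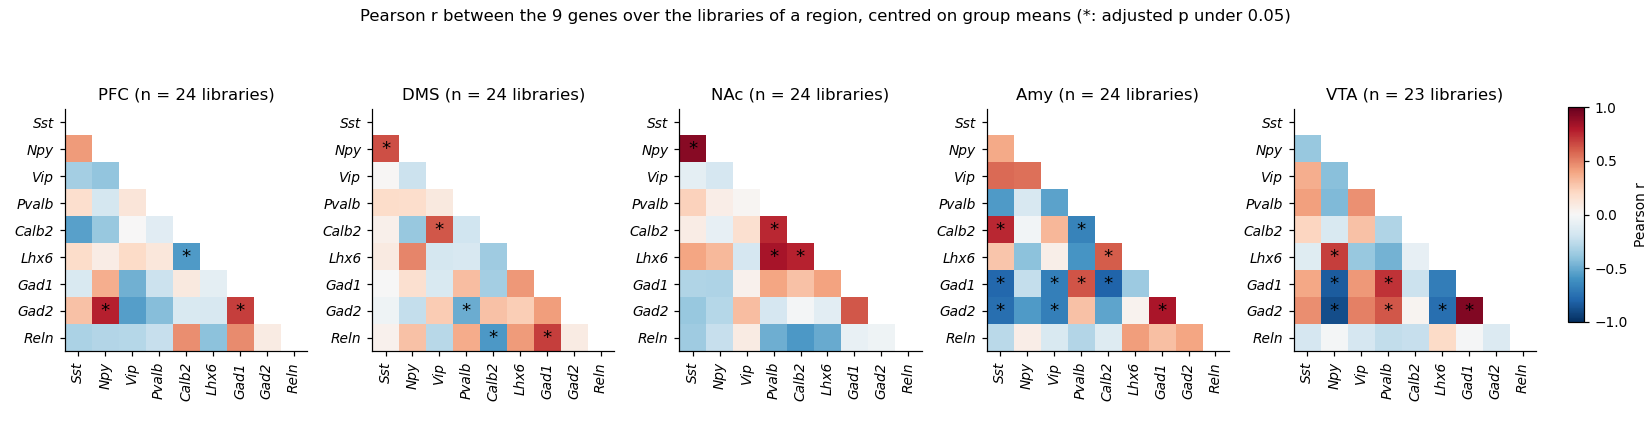
Pearson r between the libraries of a region for each of the 36 pairs of genes (rows against columns, color from -1 to 1), with 1 panel per region, from log2 CPM centred on group means, and a star where the adjusted p was under 0.05. Gad1 with Gad2 is positive with a star in PFC, Amy and VTA, and Sst with Npy has a star in DMS and NAc.

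Sst and Npy, the peptides made by the same interneurons in the striatum, moved together most closely in NAc, with r = 0.910 and rho = 0.878 (permutation, adjusted p = 9e-04 and 7.2e-04), and r = 0.875 without the 2 libraries farthest from the median of Sst. Within the NAc vehicle libraries r was 0.949 and within the THC libraries 0.843. In DMS the pair had r = 0.642 and rho = 0.618 (adjusted p = 0.02005 and 0.0328), but without the 2 farthest libraries it no longer passed (r = 0.520). It did not pass in PFC (r = 0.429, adjusted p = 0.140) or Amy (r = 0.376, adjusted p = 0.339). Without the 2 Amy libraries whose sex genes went against their labels the pair had r = 0.329 in Amy. In VTA its sign was the opposite and it did not pass either (r = -0.376, rho = -0.321, adjusted p = 0.204 and 0.334). Gad1 and Gad2 had r = 0.926 and rho = 0.914 in VTA (adjusted p = 9e-04 and 6e-04), r = 0.819 and rho = 0.786 in Amy (0.00103 and 0.0018) and r = 0.688 and rho = 0.651 in PFC (0.0254 and 0.0143), and they did not pass in DMS (0.395) or NAc (0.0662). Without the 2 farthest libraries the r of Gad1 and Gad2 was 0.863 in VTA, 0.767 in Amy and 0.551 in PFC, where it no longer passed, and without the 2 Amy libraries whose sex genes went against their labels it was 0.824 in Amy.

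A group of 3 genes moved together in NAc. Lhx6 had r = 0.825 and rho = 0.805 with Pvalb (adjusted p = 9e-04 and 7.2e-04) and r = 0.767 and rho = 0.749 with Calb2 (9e-04 and 7.7e-04), and Pvalb had r = 0.754 and rho = 0.820 with Calb2 (0.0016 and 7.7e-04). Without the 2 farthest libraries these were 0.828 for Pvalb with Lhx6, 0.719 for Calb2 with Lhx6 and 0.831 for Pvalb with Calb2. Among the NAc vehicle libraries Lhx6 ran from 18.2 to 69.3 CPM.

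In Amy 6 of the 10 pairs were negative. Gad1 ran against Calb2 (r = -0.804, rho = -0.841, adjusted p = 0.00103 and 6e-04) and against Sst (r = -0.788, rho = -0.606, adjusted p = 0.001575 and 0.0293), while Sst ran with Calb2 (r = 0.755, rho = 0.624, adjusted p = 0.00344 and 0.0254). Without the 2 libraries whose sex genes went against their labels these were -0.815, -0.805 and 0.793, and without the 2 farthest libraries -0.771, -0.653 and 0.718. In VTA Npy ran against Gad2 (r = -0.885, rho = -0.737, adjusted p = 0.00103 and 0.00746; -0.778 without the 2 farthest libraries), with Npy at about 1 CPM or below in most libraries, and Pvalb ran with Gad1 (r = 0.721, rho = 0.852, adjusted p = 0.0018 and 6e-04).

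**Figure D5:**
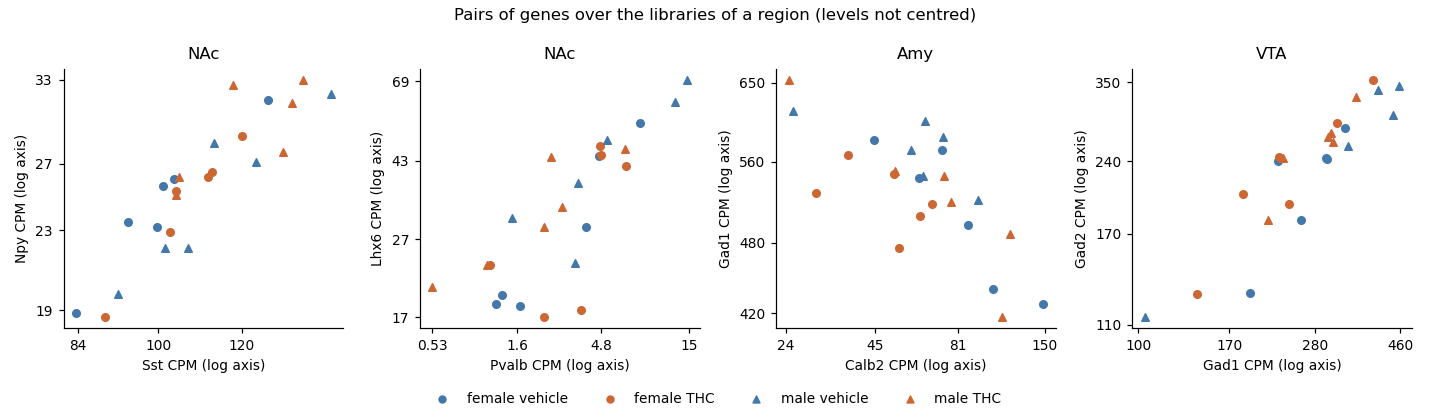
CPM in each library on log axes, not centred, of Npy against Sst in NAc, Lhx6 against Pvalb in NAc, Gad1 against Calb2 in Amy and Gad2 against Gad1 in VTA, with circles for female and triangles for male libraries, blue for vehicle and orange for THC. The points rise together in both NAc panels and in VTA and run opposite in Amy.

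Over all 119 libraries each gene's pattern was matched to those of the other genes among the 18932 past the filter by Pearson r of log2 CPM, which follows the differences between regions. The 3 closest were Kcng1 (0.938), Gm45441 (0.932) and Rpusd1 (0.917) for Sst and Chrm1 (0.986), Ptk2b (0.979) and Ccsap (0.976) for Npy. For Vip they were Rap2a (0.971), Ndst3 (0.966) and Arhgef25 (0.964), for Pvalb Gls2 (0.947), Stk39 (0.941) and Clec2l (0.935), and for Calb2 Psd2 (0.973), B630019K06Rik (0.971) and Arl10 (0.970). Lhx6 was matched by Dbpht2 (0.964) and Icam5 (0.957). The 3 closest were for Gad1 Sp9 (0.927), Dclk2 (0.913) and Gad2 (0.910), for Gad2 Htr4 (0.941), Fndc9 (0.940) and Gm14204 (0.932), and for Reln Rnf144a (0.931), Zbtb8a (0.927) and Fam160b2 (0.922). These values are descriptions, since libraries share regions, tables and depth.

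After centring on the mean of each region, sex and treatment group, other genes came closest. Gad1 was matched by Slc32a1 (0.892), which encodes the vesicular GABA transporter, by Gad2 (0.870) and by Nrxn3 (0.761), and Gad2 by Gad1, Hspa4l (0.826) and Slc32a1 (0.807). Lhx6 was matched by Foxb1 (0.716), Nkx2-4 (0.647) and Gdf10 (0.636), and Npy by Chrm1 (0.866), Rprm (0.839) and Kcnj4 (0.821). Pvalb was matched by Cerk (0.822), Rassf4 (0.807) and Vamp1 (0.804), Calb2 by Pnma3 (0.767), Resp18 (0.749) and Camk2n2 (0.739), and Vip by Vxn (0.708), Nrn1 (0.655) and Slc30a3 (0.647). Reln had Chd4 (0.611), Atf7ip (0.594) and Abcc1 (0.592), and Sst had the lowest values of the list with Nxph2 (0.469), Dipk1b (0.465) and Shisal2b (0.459).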

How the data were processed

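RNA-seq was done on brain punches of 5 regions, in 119 libraries. Per the labels and the study's methods, the authors trimmed reads with cutadapt 2.9, aligned them to mm10 with STAR 2.7.3a and deposited expected counts per gene symbol from RSEM 1.3.1, not normalized, in 2 tables. Each value column of the tables belongs to a sample, and no value column was left unused. Expected counts were rounded to whole numbers, since 4.75% of values in the table of PFC and DMS and 5.00% in the other were not whole. No 2 libraries were identical.

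Genes were tested with edgeR 4.0.16 in R 4.3.3 (quasi-likelihood F test with robust fitting, filterByExpr, TMM, Benjamini-Hochberg over all genes tested). THC was compared with vehicle within each region and sex, in both sexes with sex as a covariate and as a sex interaction, and regions were compared in vehicle libraries with sex as a covariate. Genes were called at an adjusted p under 0.05 when the log2 fold change reached 0.4 in either direction, the limits in the study's methods, which used DESeq2. Shares of genes called by DESeq2 are of the genes to which it gave an adjusted p. Log2 CPM values used a prior count of 2. The tests were tried on simulated counts. Correlations used 100000 permutations (20000 for alternatives), and 1e-05 is the smallest p they can give. Alternatives were DESeq2 1.42.0 and its size factors, no filter, 4 groups in 1 fit, leaving out each library, THC libraries or 1 sex for the regions, and 4 settings for the correlations. Some alternatives were chosen after seeing the data. These were DESeq2 without each library in male VTA and without the Amy libraries FTL_344 and FTL_356, and the correlations and marker lists without those 2 libraries. The correlations of all genes and the VTA interaction without FTL_359 or FTL_363 were also chosen then. Loci are from GENCODE M21 and sequences from RefSeq on GRCm38.p6.

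The text names all 9 genes, up to 5 called genes of each further marker list (by p), and the 3 genes closest in pattern to each, of which 1 is not reported here. The 9 genes and all lists were chosen with earlier results of these data known. The tests cannot take mice as a block, because the labels do not tie libraries to mice.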

Additional observations from a re-analysis of the deposited data

Results flagged for a closer look

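The level of each gene was examined in each group of 5 or 6 libraries for a highest or lowest library far from the others (the gap to the nearest library over the whole range, against Dixon's 95% value). Of 180 groups 18 had such a library, and chance alone gives about 1 in 20. The 18 values came from 14 libraries, and each stood above the others of its group.

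In female vehicle DMS, FTL_285 had Calb2 at 5.32 CPM (others 1.32 to 2.77) and Vip at 3.59 CPM (others 0.110 to 0.408). In male vehicle DMS, FTL_301 had Calb2 at 7.4 CPM (others 2.20 to 2.901). In female THC PFC, FTL_272 had Gad2 at 211 CPM (others 129 to 154) and Npy at 59.2 CPM (others 35.7 to 40.6), and FTL_269 had Lhx6 at 23 CPM (others 17.9 to 19.7). In female vehicle Amy, FTL_338 had Sst at 499 CPM (others 275.97 to 330.3) and Npy at 42.1 CPM (others 27.1 to 29.4). In male vehicle VTA, FTL_371, the shallowest library, had Lhx6 at 1.79 CPM (others 0 to 0.412) and Npy at 5.97 CPM (others 0.403 to 0.693).

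Gad1 was at 710 CPM in FTL_296 of female THC DMS (others 548 to 608) and at 836 CPM in FTL_325 of male vehicle NAc (others 627 to 701). In female THC NAc, Gad2 was at 996 CPM in FTL_320 (others 854 to 904) and Reln at 87.3 CPM in FTL_317 (others 57.9 to 68.1). Reln was also high in FTL_342 of female THC Amy, at 52.5 CPM (others 40.6 to 44.98). Pvalb was at 43.7 CPM in FTL_352 of male THC Amy (others 4.15 to 12.9). In the VTA, Npy was at 1.36 CPM in FTL_376 of male THC (others 0.417 to 0.665) and Vip at 6.45 CPM in FTL_363 of female THC (others 1.33 to 1.81).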

How the results depend on the processing

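The counts of called genes moved by over 1.5 times in the following cases. In male VTA DESeq2 called 1 of the 9 (Sst) where edgeR called 0, and DESeq2 with each library left out in turn called 0 to 2. In these refits it called 0.00328% to 0.521% of the genes to which it gave an adjusted p, which numbered from 2689 to 30504. It called none without FTL_372, Sst and Gad1 without FTL_371, Calb2 without FTL_373, where it gave Sst no adjusted p, and Sst without each of the others. The cause was not tested. In female Amy the fit of 4 groups called 0 where the fit of 2 groups called 1 (Lhx6), and leaving out each library called 0 to 1. Between regions the counts stayed within 1.5 times, but single calls were lost. Sst between DMS and NAc was lost in DESeq2 (0.39), with its size factors, in THC libraries and in either sex alone. Npy and Gad2 between DMS and Amy were lost in THC libraries, Vip between DMS and NAc, Pvalb between DMS and Amy and Pvalb between PFC and VTA in females alone, and Pvalb between NAc and Amy in males alone. DESeq2 gave Vip no adjusted p between regions. Of the 29 pairs of genes past the adjusted threshold, 17 passed without the 2 farthest libraries and 27 without centring. Within vehicle libraries 1 of them passed and within THC libraries 1, and these settings have fewer libraries. Without the 2 Amy libraries whose sex genes went against their labels 28 of them passed, and Calb2 with Lhx6 in Amy was lost (adjusted p = 0.0801). Over all 180 pairs 33 passed without centring and 31 without those libraries. The sign of all 29 was kept in these 5 settings. No called or correlated value reversed. Over 2186 values of the 9 genes under alternatives, 72 had another sign, 15 of them with a main log2 fold change of at least 0.1 in size. Depth limits the genes near 1 CPM or below, which are Lhx6, Npy and Vip in VTA and Vip in DMS and NAc.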
